A study of Mus musculus with 9 samples.

Results

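Expression of 36 genes of the p53 response was examined in the jejunum of 9 mice on day 3 after total abdominal irradiation (TAI). The genes were taken by symbol from a list of p53 and its regulators and of genes that p53 activates, with the BCL2 family set aside. The list was chosen with earlier results of these data known, so shares of members called are descriptions. All 36 were among the 31685 genes listed, and all 36 were among the 13056 genes tested. By role, 7 encode p53 and its negative regulators, 7 act in cell cycle arrest and the mitotic spindle, 10 in death receptor signaling and apoptosis, 5 in DNA repair and nucleotide supply, and 7 in stress signaling, growth control and metabolism.

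p53 is a transcription factor that is kept low by the ubiquitin ligase Mdm2 and is stabilized when ionizing radiation breaks DNA. It then binds response elements near its target genes and switches on arrest, repair and death programs, together with the inhibitors that end the response. In the small intestine it is best known for the death of crypt cells within hours of irradiation and for the arrest of the cells that survive.

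The mice were wild-type C57BL/6J males aged 6 to 8 weeks, 3 in each group. Control mice had no treatment, TAI mice received a single X-ray dose of 12 Gy to the abdomen, and TAI/IVIg mice received the same dose followed by 500 mg/kg of intravenous immunoglobulin (IVIg, pooled human IgG) within 1 hour and every 3 days afterwards. The study's grouping gives the TAI mice phosphate-buffered saline, which the sample labels do not mention. No group received IVIg without irradiation, so an effect of IVIg on these genes in unirradiated tissue was not measured.

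The promoters of the members were searched for the p53 response element, a pair of 10-base decamers, because a direct target can carry one near its start. RefSeq windows of 300 bases (250 before and 50 after each start site, GRCm38.p6) were held for 29 of the 36 members, with 39 windows in all, and Perp, Zmat3, Ddb2, Tnfrsf10b, Trp53inp1, Rrm2b and Xpc had no entry. A pair was counted where the core bases of both decamers matched and at most 2 of the 20 bases departed from the p53 consensus, with 0 to 13 bases between the decamers. The consensus reads the same on both strands. Of the 29 members, 6 (20.7%) held such a pair, beside 4.71% of the 27025 genes with a window. For each of the 6, the pair with the fewest departures in its window is printed 5′ to 3′ on the gene's strand. The decamers are in capitals and the bases between them in lower case.

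Ccng1, chr11:40755462-40755481 (minus strand): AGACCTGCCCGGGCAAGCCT
Cdkn1a, chr17:29090906-29090937 (plus strand): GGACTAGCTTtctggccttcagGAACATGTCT
Pml, chr9:58249921-58249947 (minus strand): AGCCATGCCCgcatgccGGGCTTGTTT
Gadd45a, chr6:67037438-67037463 (minus strand): GGACCTGGTTggctgaGGGCTAGCCC
Rps27l, chr9:66946296-66946315 (plus strand): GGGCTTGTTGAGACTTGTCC
Sesn1, chr10:41887253-41887275 (plus strand): GCGCTTGGCCttcAAGCTTGTTT

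The pairs of Ccng1, Cdkn1a and Pml lay upstream of every transcript that GENCODE M21 annotates for the gene. That of Gadd45a overlapped an exon, and those of Rps27l and Sesn1 lay in introns, before an internal start site. Cdkn1a had no departure from the consensus, Ccng1, Pml and Rps27l had 1, and Gadd45a and Sesn1 had 2. Among these 6 genes, Ccng1 was called higher after TAI and the other 5 were not called on the values that follow. Of the 13 members called higher after TAI, 11 had a window and 1, Ccng1, held a pair. A match is a description of the letters in a window, and an element farther from the start would not be seen. The stretches before the first annotated transcript are printed for Ccng1, for Cdkn1a and for Phlda3. Phlda3 had the largest fitted change of log2(FPKM + 1) among the 36 and no pair in this window. Again only the pair with the fewest departures is in capitals. In Cdkn1a the capital decamer GAACATGTCT is followed directly by tgacatgttc. These form another pair under the same rule, with 1 departure, which is not marked.

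Ccng1, chr11:40755312-40755536 (minus strand): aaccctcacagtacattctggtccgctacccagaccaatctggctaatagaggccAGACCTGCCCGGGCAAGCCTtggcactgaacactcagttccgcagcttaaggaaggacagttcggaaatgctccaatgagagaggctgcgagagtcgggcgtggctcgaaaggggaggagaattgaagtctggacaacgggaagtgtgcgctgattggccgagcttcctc
Cdkn1a, chr17:29090729-29090975 (plus strand): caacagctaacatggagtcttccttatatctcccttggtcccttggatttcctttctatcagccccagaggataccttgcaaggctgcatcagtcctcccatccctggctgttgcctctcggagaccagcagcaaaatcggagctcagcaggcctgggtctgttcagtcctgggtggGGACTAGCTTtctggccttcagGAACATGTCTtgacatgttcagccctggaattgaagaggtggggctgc
Phlda3, chr1:135765835-135766084 (plus strand): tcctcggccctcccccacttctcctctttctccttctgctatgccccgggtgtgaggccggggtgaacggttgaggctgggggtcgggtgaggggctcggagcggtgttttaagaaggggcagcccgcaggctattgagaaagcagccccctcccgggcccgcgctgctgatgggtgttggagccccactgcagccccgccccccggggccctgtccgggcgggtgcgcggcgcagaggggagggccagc

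The Ccng1 pair lay 195 to 176 bases before the RefSeq start and had no base between its decamers. The Cdkn1a pair in capitals lay 73 to 42 bases before the more upstream of its RefSeq starts, with 12 bases between. The window at the other Cdkn1a start held no pair. The printed Phlda3 stretch had a GC content of 71.2%, against 56.4% for Ccng1 and 54.3% for Cdkn1a.

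Values are FPKM, fragments scaled to transcript length and to the library's total, so levels are per length and can be set side by side between genes. The reads behind them were recovered, and totals ran from 16284386 to 18244535 per mouse. The labels call the samples jejunal epithelial tissue. Enterocyte markers were abundant, with a summed FPKM of 11895 to 47854, but markers of smooth muscle (113 to 765), fibroblasts (21.1 to 94.2) and plasma cells (344 to 727) were present in every mouse, so non-epithelial layers were included, and none of the markers listed for these cells was at 0 in all mice. The summed B cell markers were 391 in control 3, against 1.22 to 77.7 in the other mice, and control 3 was also the highest control for 20 of the 36 members. The share of all genes tested for which control 3 was the highest control was not computed. In bulk tissue, fewer cells of a type and less RNA per cell cannot be told apart. As the authors scaled the values, the median log2 fold change of all genes tested was −0.23 for TAI against control, −0.39 for TAI/IVIg against control and −0.13 for TAI/IVIg against TAI, and the members' changes are given on that scale.

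The first comparison asked which p53 genes differed from control 3 days after TAI. In the jejunum of TAI mice, 13 of 36 members were higher than in control (36.1%, against 8.81% of all genes tested) and 1 was lower (2.78%, against 26.1% of all genes tested). The 13 were Mdm2, Ccng1, Btg2, Psrc1, Zmat3, Fas, Eda2r, Apaf1, Phlda3, Trp53inp1, Sesn2, Gdf15 and Dcxr, and the gene that fell was Plk3. Psrc1, Eda2r and Gdf15 reached the filter of 1 FPKM in 3 mice only through the TAI mice, where they were high. Their place among the 13 is therefore not independent of the filter. Without the filter 12 members were higher, against 3.39% of all genes. Psrc1, Eda2r and Gdf15 were still among them, and Trp53inp1 was lost. The median log2 fold change of the 36 members was 0.30. Calls rest on limma's moderated test of log2(FPKM + 1) with an adjusted p under 0.05, where p-values measure the spread among the mice of a group. With the replicate number as a block, 15 members were higher (against 9.12% of all genes tested), Plk2 and Tnfrsf10b being added. After TAI/IVIg, 8 members were higher than in control (22.2%, against 9.06%) and 4 were lower (11.1%, against 37.4%), with a median of 0.06. The 8 were Ccng1, Btg2, Fas, Eda2r, Apaf1, Phlda3, Sesn2 and Dcxr. The 4 were Trp53, Ppm1d, Plk3 and Pltp. Without the filter 6 were higher (against 3.40% of all genes), Eda2r and Sesn2 being lost. Of the falls, 3 stayed (against 14.7% of all genes), Ppm1d being lost. Both comparisons use the same 3 control mice. When the libraries' medians were set equal, the members called against control became 19 up and 0 down after TAI, and 16 up and 1 down after TAI/IVIg. The shares of all genes tested moved too, to 16.5% up and 14.0% down after TAI, and 22.1% up and 14.5% down after TAI/IVIg.

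**Figure D1:**
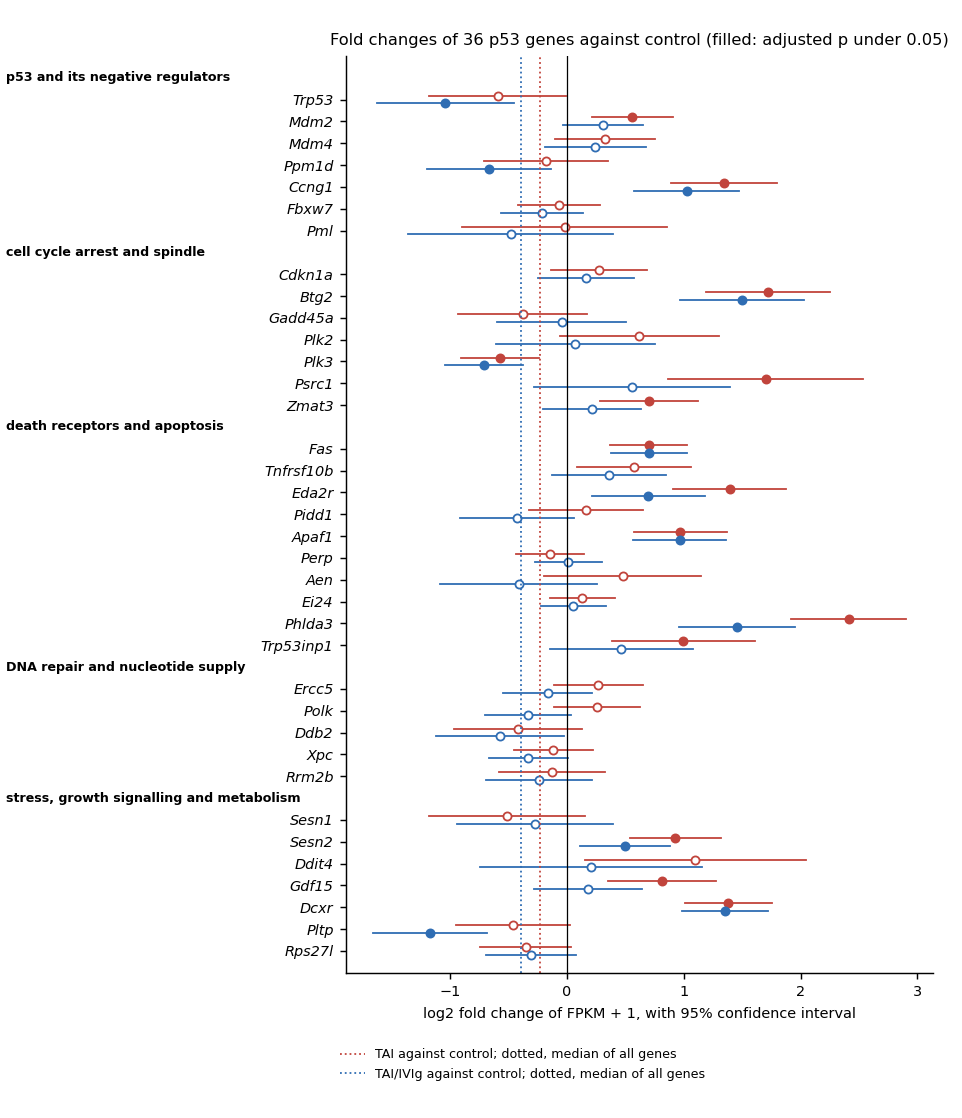
Fitted log2 fold changes of FPKM + 1 for the 36 p53 genes, by role, for TAI (red) and TAI/IVIg (blue) against control, with 95% confidence intervals; filled points passed an adjusted p of 0.05 and dotted lines mark the median of all 13056 genes tested (−0.23 and −0.39). Phlda3 lies farthest to the right for TAI (2.41), and no gene of DNA repair and nucleotide supply is filled.

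Among p53 and its regulators, Trp53 itself, the gene of p53, was not higher after TAI. Its FPKM was 7.50, 9.48 and 13.3 in the control mice, 5.04, 7.15 and 6.52 in the TAI mice, and 5.20, 5.33 and 2.73 in the TAI/IVIg mice. All irradiated mice lay below all controls. The log2 fold change against control was −0.59 ± 0.26 (SE, n = 3 per group, limma adjusted p = 0.103) for TAI, which was not called, and −1.04 ± 0.26 (limma adjusted p = 0.0110) for TAI/IVIg, which was, although with equal library medians that value was −0.55 (limma adjusted p = 0.0505). These are transcript levels, and the amount of p53 protein was not measured in these data.

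Mdm2, the ubiquitin ligase that degrades p53 and is itself a p53 target, had an FPKM of 17.6, 17.1 and 16.4 in control, 25.7, 31.5 and 20.5 after TAI, and 20.9, 22.2 and 20.8 after TAI/IVIg. The controls lay close together and below every irradiated mouse. Mdm2 rose after TAI by 0.56 ± 0.15 on the log2 scale (limma adjusted p = 0.0214), but not past the threshold after TAI/IVIg (0.31 ± 0.15, limma adjusted p = 0.122). The TAI call was lost without control 2, control 3, TAI 1 or TAI 2, each left out in turn (limma adjusted p between 0.0595 and 0.0731).

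Ccng1 encodes cyclin G1, which brings a phosphatase to Mdm2 and is a long-known p53 target. It was 20.5, 21.1 and 22.7 in control, 50.7, 69.4 and 49.6 after TAI, and 37.6, 59.8 and 39.4 after TAI/IVIg. No irradiated mouse overlapped the controls, whose spread was small. Ccng1 rose 2.64-fold by group means after TAI (log2 fold change 1.34 ± 0.20, limma adjusted p = 0.00205) and 2.13-fold after TAI/IVIg (1.02 ± 0.20, limma adjusted p = 0.00383).

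None of the other regulators was called higher on the authors' scale with all mice. Ppm1d, the phosphatase Wip1 that dampens the damage response, was 1.61, 2.18 and 3.51 in control, 2.04, 2.11 and 1.71 after TAI, and 1.09, 1.67 and 0.676 after TAI/IVIg. TAI/IVIg mice overlapped the lowest control, and the fall against control (−0.67 ± 0.23, limma adjusted p = 0.0429) was called in 5 of the 18 alternative fits run for it (highest limma adjusted p 0.412), and was lost with the replicate block (0.0648). Leaving out control 2, control 3, TAI/IVIg 1, TAI/IVIg 3 or any TAI mouse lost it too. Mdm4, the relative of Mdm2 that masks p53's activation domain, ranged from 6.55 to 11.4 in control, 9.54 to 11.5 after TAI and 9.40 to 10.4 after TAI/IVIg, with control 3 the highest control. Without control 3 it was called in both comparisons (0.55, limma adjusted p = 0.0235 for TAI, and 0.47, limma adjusted p = 0.0280 for TAI/IVIg). Mdm4 was also called higher in both when the libraries were rescaled by their medians, by quantiles or by median ratios. The highest log2 fold changes were then 0.67 for TAI and 0.76 for TAI/IVIg, and no other alternative fit called it. Fbxw7, a substrate receptor of a ubiquitin ligase, and Pml, the scaffold of nuclear bodies, overlapped between control and TAI, at 2.10 to 3.43 against 2.33 to 2.66 and at 21.3 to 37.0 against 21.4 to 30.1. TAI/IVIg mice had 1.98 to 2.22 for Fbxw7 and 10.2 to 35.2 for Pml.

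Of the 7 genes of cell cycle arrest and the spindle, 3 rose after TAI, 1 fell and 3 were not called. Cdkn1a encodes p21, the cyclin-dependent kinase inhibitor through which p53 arrests cells in G1, and was among the most abundant members. Its FPKM was 118, 119.9 and 85.2 in control, 132, 126 and 129 after TAI, and 148, 109 and 104 after TAI/IVIg. The TAI mice lay above all controls, but by a small margin, and the log2 fold change of 0.28 ± 0.18 (limma adjusted p = 0.263) was not called in any of the 19 alternative fits (highest log2 fold change 0.57). For TAI/IVIg the groups overlapped (0.16 ± 0.18, limma adjusted p = 0.485).

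Btg2, an antiproliferative factor that recruits deadenylases to mRNA, was 22.4, 29.0 and 36.7 in control, 86.1, 96.6 and 111 after TAI, and 114, 68.4 and 73.8 after TAI/IVIg. The lowest irradiated mouse was well above the highest control. It rose after TAI (log2 fold change 1.72 ± 0.23, limma adjusted p = 0.00154) and after TAI/IVIg (1.50 ± 0.23, limma adjusted p = 0.00166).

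Psrc1, a microtubule-binding protein of the mitotic spindle that p53 also regulates, varied widely among the mice. It was 0.342, 0.505 and 0.618 in control, 3.75, 6.24 and 2.26 after TAI, and 0.595, 2.80 and 0.709 after TAI/IVIg. All TAI mice were above all controls, whereas TAI/IVIg 1 lay within their range, TAI/IVIg 3 just above it and TAI/IVIg 2 well above it. It rested on 20 to 36 reads in control, 139 to 342 after TAI and 36 to 160 after TAI/IVIg. The group means differed 8.37-fold between TAI and control, and the log2 fold change of FPKM + 1, which understates changes of genes this low, was 1.70 ± 0.37 (limma adjusted p = 0.00916). After TAI/IVIg it was 0.55 ± 0.37 (limma adjusted p = 0.238).

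Zmat3, an RNA-binding zinc finger protein, was 1.40, 1.86 and 1.82 in control, 3.27, 4.12 and 2.84 after TAI, and 1.70, 2.92 and 1.85 after TAI/IVIg. It rose after TAI (0.71 ± 0.18, limma adjusted p = 0.0186) but not without TAI 1 or TAI 2 (limma adjusted p = 0.0595 and 0.0668), and TAI/IVIg mice overlapped the controls (0.21 ± 0.18, limma adjusted p = 0.364).

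Plk2 and Plk3 are stress-responsive relatives of the mitotic polo-like kinase, and Plk3 was the member that fell after TAI. Plk3 was 12.5, 15.2 and 13.1 in control, 8.42, 8.01 and 10.1 after TAI, and 9.05, 6.70 and 8.06 after TAI/IVIg, with no overlap. It fell after TAI by 0.57 ± 0.15 on the log2 scale (limma adjusted p = 0.0176) and after TAI/IVIg by 0.71 ± 0.15 (limma adjusted p = 0.00504). With equal library medians the changes were −0.29 and −0.22 and were not called, and the TAI call was also lost without control 2, TAI 1 or TAI 2 (limma adjusted p between 0.0621 and 0.0712). Plk2 was 4.95, 8.09 and 3.56 in control and 8.71, 11.9 and 6.14 after TAI (0.62 ± 0.30, limma adjusted p = 0.138), and 4.10 to 6.68 after TAI/IVIg. In each group mouse 2 was the highest, and with the replicate block the same difference was called (limma adjusted p = 0.0129). Gadd45a, which acts in arrest and DNA repair, was 30.9 to 38.9 in control, 23.8 to 30.5 after TAI and 22.7 to 46.0 after TAI/IVIg, and was not called (−0.38 ± 0.24 for TAI, limma adjusted p = 0.250).

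**Figure D2:**
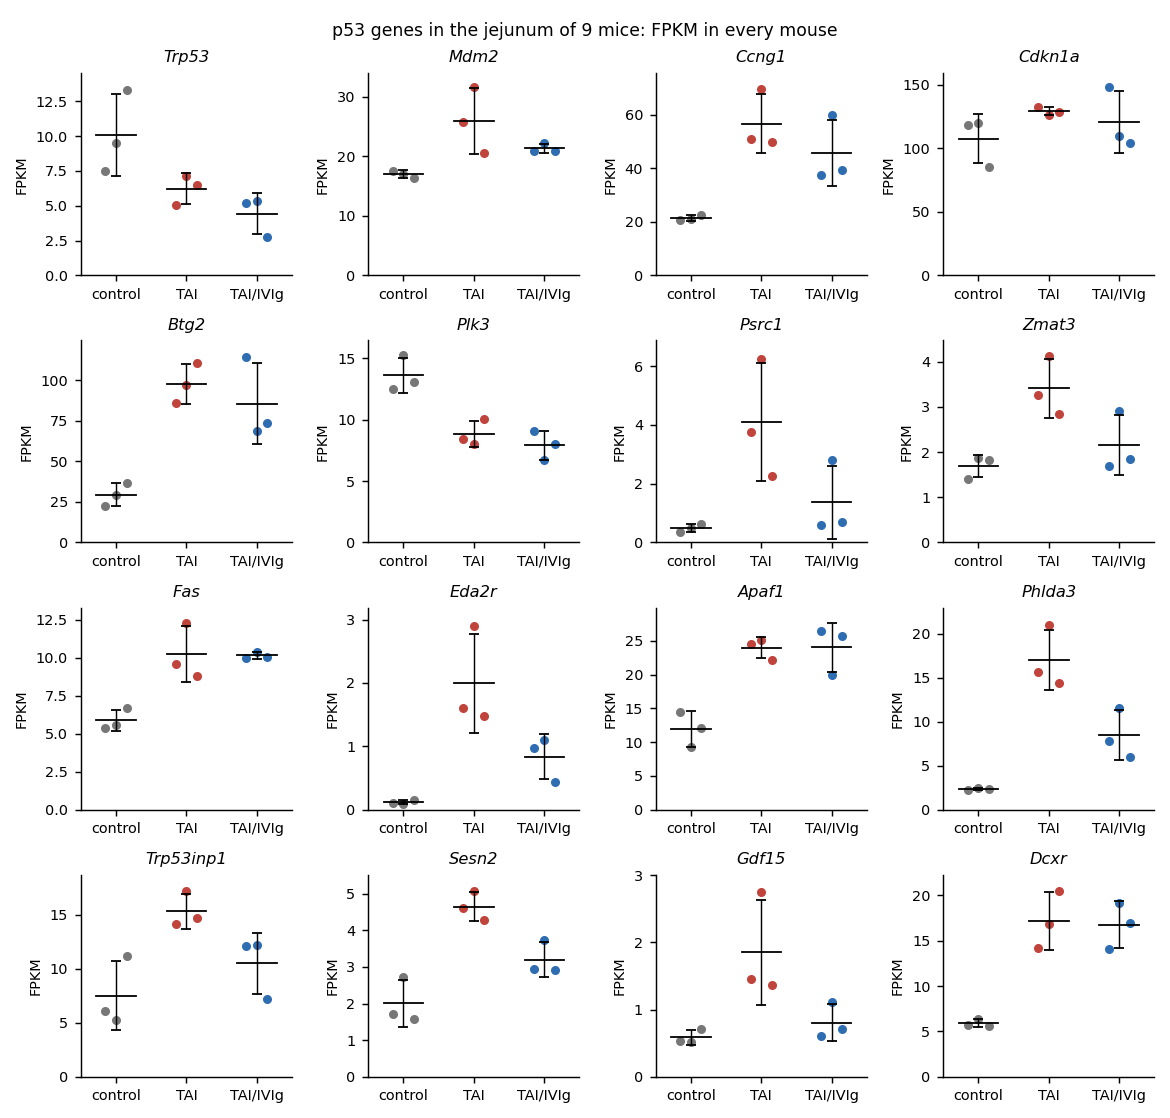
FPKM of the 14 members called in TAI against control, with Trp53 and Cdkn1a, in every mouse; points are mice, horizontal bars the group mean and whiskers its SD (n = 3), and each axis starts at 0. Phlda3 and Eda2r step down from TAI to TAI/IVIg without overlap, whereas the 2 irradiated groups overlap for Fas, Apaf1 and Dcxr.

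Death receptor and apoptosis genes held 5 of the 13 rises, in 10 members. Phlda3, a PH domain protein that competes with Akt for membrane lipids, had the largest fitted change among all 36 on the log2(FPKM + 1) scale, on which genes near 0 FPKM in control, such as Eda2r and Psrc1, are understated. Its FPKM was 2.21, 2.47 and 2.37 in control, 15.7, 20.96 and 14.4 after TAI, and 7.78, 11.6 and 6.00 after TAI/IVIg. The 3 groups did not overlap, with TAI/IVIg between control and TAI. Group means were 7.24-fold higher after TAI (log2 fold change 2.41 ± 0.22, limma adjusted p = 0.00035) and 3.59-fold higher after TAI/IVIg (1.45 ± 0.22, limma adjusted p = 0.00143).

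Eda2r, the receptor of ectodysplasin A2, was near the limit of detection in control. It was 0.107, 0.0864 and 0.157 there, on 9 to 16 reads, and 1.60, 2.90 and 1.48 after TAI on 159 to 278 reads. TAI/IVIg mice had 0.972, 1.10 and 0.435, again between the other groups with no overlap. By group means it was 17.1-fold higher after TAI and 7.15-fold higher after TAI/IVIg. On the log2(FPKM + 1) scale these changes were 1.39 ± 0.21 (limma adjusted p = 0.00232) and 0.70 ± 0.21 (limma adjusted p = 0.0263), and the second was lost without any control mouse, TAI/IVIg 1 or TAI/IVIg 2 (limma adjusted p between 0.0540 and 0.0767). The second call was also lost without the filter, which Eda2r passed only through the TAI mice.

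Fas, the receptor of Fas ligand, was 5.36, 5.60 and 6.69 in control, 9.57, 12.3 and 8.82 after TAI, and 9.98, 10.4 and 10.1 after TAI/IVIg. Both irradiated groups lay above every control, by 0.70 ± 0.15 for TAI (limma adjusted p = 0.00762) and by 0.70 ± 0.15 for TAI/IVIg (limma adjusted p = 0.00495). Apaf1, the scaffold of the apoptosome, was 14.5, 9.21 and 12.1 in control, 24.6, 25.2 and 22.3 after TAI, and 26.4, 19.9 and 25.8 after TAI/IVIg. It rose by 0.97 ± 0.18 (limma adjusted p = 0.00446) and by 0.96 ± 0.18 (limma adjusted p = 0.00292).

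Trp53inp1, a stress-induced nuclear protein linked to autophagy and death, was 6.10, 5.30 and 11.2 in control, 14.1, 17.2 and 14.7 after TAI, and 12.1, 12.2 and 7.25 after TAI/IVIg. It rose after TAI (1.00 ± 0.27, limma adjusted p = 0.0212), but not when control 1, control 2, TAI 1 or TAI 2 was left out (limma adjusted p between 0.0561 and 0.0738). The call was also lost without the filter of 1 FPKM. After TAI/IVIg control 3 overlapped the treated mice, and the difference was 0.46 ± 0.27 (limma adjusted p = 0.181), or 0.75 without control 3 (limma adjusted p = 0.0350).

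Tnfrsf10b, a receptor of the death ligand TRAIL, was 1.43, 1.63 and 1.43 in control, 2.58, 3.60 and 2.09 after TAI, and 1.53, 3.24 and 2.07 after TAI/IVIg. TAI mice did not overlap the controls, but the test missed the threshold (0.57 ± 0.22, limma adjusted p = 0.0673), and passed it with the replicate block (0.0346). Aen, a nuclease that degrades DNA in dying cells, was 1.82 to 4.35 in control and 3.94 to 6.21 after TAI (0.48 ± 0.30, limma adjusted p = 0.237). Pidd1, which assembles the caspase-2 platform, was 0.979 to 1.84 in control and 1.20 to 2.54 after TAI. Perp, a membrane protein of desmosomes, and Ei24, a membrane protein of the endoplasmic reticulum, were called in neither comparison. Perp was 145 to 178 in control, 145 to 151 after TAI and 156 to 178 after TAI/IVIg, and Ei24 ran from 17.5 to 21.8 over all mice.

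None of the 5 genes of DNA repair and nucleotide supply was called in any comparison at an adjusted p of 0.05. Ercc5, the endonuclease XPG, was 2.13, 2.34 and 2.67 in control, 2.85, 3.72 and 2.70 after TAI, and 1.94, 2.62 and 1.56 after TAI/IVIg. Polk, a translesion DNA polymerase, was 1.52, 1.70 and 1.90, then 1.94, 2.80 and 2.00, then 1.21, 1.43 and 0.848. For both genes the TAI mice lay above every control and every TAI/IVIg mouse. The log2 fold changes for TAI against control were 0.27 ± 0.17 and 0.25 ± 0.16 (limma adjusted p = 0.243 and 0.248), and were called only when the libraries were rescaled by their medians, by quantiles or by median ratios (limma adjusted p between 0.00964 and 0.0270).

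Ddb2 and Xpc, which recognize damaged bases for nucleotide excision repair, and Rrm2b, the p53-inducible subunit of ribonucleotide reductase, were not higher after TAI. Control 3 stood apart for Ddb2, at 3.29 against 1.30 and 1.34, and for Rrm2b, at 2.45 against 1.22 and 1.08. TAI mice had 1.02 to 1.23 for Ddb2, 1.81 to 2.01 for Xpc and 1.25 to 1.36 for Rrm2b, and TAI/IVIg mice 0.741 to 1.23, 1.28 to 1.75 and 0.973 to 1.40. The controls of Xpc ran from 1.73 to 2.65. Ddb2 was called lower after TAI/IVIg only without control 1 (−0.73, limma adjusted p = 0.0488, against −0.57 and 0.0789 with all mice).

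In the stress and metabolism group, 3 of 7 members rose after TAI. Dcxr, a reductase of dicarbonyls and xylulose, was 5.73, 6.38 and 5.60 in control, 14.2, 16.9 and 20.5 after TAI, and 14.1, 19.2 and 17.0 after TAI/IVIg. The irradiated groups covered the same range, 2.91-fold and 2.84-fold above control by group means (log2 fold changes 1.38 ± 0.16 and 1.35 ± 0.16, limma adjusted p = 0.000938 and 0.000621).

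Sesn2, a sestrin that restrains mTORC1 under stress, was 1.71, 2.74 and 1.58 in control, 4.60, 5.07 and 4.27 after TAI, and 2.94, 3.74 and 2.92 after TAI/IVIg. The 3 groups did not overlap, with TAI/IVIg in the middle. It rose after TAI (0.93 ± 0.17, limma adjusted p = 0.00477) and after TAI/IVIg (0.50 ± 0.17, limma adjusted p = 0.0403), the latter call holding in 8 of 18 alternative fits. It was lost without any mouse but control 2 (limma adjusted p between 0.0549 and 0.121). Sesn1, its relative, did not rise, at 10.7 to 21.3 in control, 8.22 to 12.6 after TAI and 7.90 to 15.1 after TAI/IVIg (−0.52 ± 0.30 for TAI, limma adjusted p = 0.203).

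Gdf15, a secreted stress hormone of the TGF-beta family, was 0.528, 0.519 and 0.717 in control, 1.45, 2.75 and 1.36 after TAI, and 0.600, 1.11 and 0.708 after TAI/IVIg. The counts behind it were small, 17 to 23, 46 to 83 and 20 to 35 reads. It was 3.15-fold higher by group means after TAI (0.81 ± 0.20, limma adjusted p = 0.0159), a call lost without control 2 (0.0519), and TAI/IVIg mice overlapped the controls (0.18 ± 0.20, limma adjusted p = 0.490).

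Ddit4, also called REDD1, an mTORC1 inhibitor induced by stress and glucocorticoids, was 10.2, 11.4 and 33.2 in control and 30.7, 30.2 and 46.3 after TAI. Control 3 alone reached the TAI range. With it the log2 fold change was 1.10 ± 0.42 (limma adjusted p = 0.0695), and without it 1.61 (limma adjusted p = 0.00969). TAI/IVIg mice had 25.9, 17.9 and 13.4, all below the TAI mice (−0.89, interval −1.84 to 0.05, limma adjusted p = 0.401).

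Pltp, which transfers phospholipids between lipoproteins, was 2.81, 4.48 and 3.18 in control, 1.91, 2.44 and 2.33 after TAI, and 1.37, 1.19 and 0.465 after TAI/IVIg. The groups stepped down without overlap. The fall was called for TAI/IVIg against control (−1.17 ± 0.22, limma adjusted p = 0.00299) and not for TAI (−0.46 ± 0.22, limma adjusted p = 0.126). Rps27l, a ribosomal protein paralog that p53 induces in other settings, was 147, 190.5 and 146 in control and 112, 142 and 123 after TAI (−0.35 ± 0.17, limma adjusted p = 0.137), and 108 to 143 after TAI/IVIg. Reads shared with its close relative Rps27 could be split between the genes.

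The comparison of TAI/IVIg with TAI asked whether the p53 genes differed between irradiated mice with and without IVIg. No member was called (0 of 36, and 0 of all 13056 genes tested, 0% of them), with limma adjusted p of 0.353 or more for every member, and voom on the recovered reads called none either. Without the filter 4 genes of the whole table were called lower, and with the replicate block 3, none of them a member. At an unadjusted p under 0.05, 11 members were lower in TAI/IVIg (30.6%, against 11.2% of all genes tested) and 0 were higher (against 1.64%). The 11 were Phlda3, Polk, Pltp, Eda2r, Gdf15, Psrc1, Aen, Pidd1, Zmat3, Ercc5 and Sesn2. Of these, Eda2r, Gdf15 and Psrc1 passed the filter only through the TAI mice, where they were high. In 14 members every TAI/IVIg mouse lay below every TAI mouse (38.9%, against 16.1%), and in 1, Perp, every TAI/IVIg mouse lay above (2.78%, against 3.09%).

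Phlda3 had the smallest unadjusted p, at a log2 fold change of −0.96 with a 95% confidence interval of −1.45 to −0.46 (limma adjusted p = 0.353). Its mean was 8.44 ± 2.83 FPKM (SD, n = 3) with IVIg and 17.0 ± 3.47 without. Polk differed by −0.59 (−0.95 to −0.22), Pltp by −0.71 (−1.20 to −0.22), Eda2r by −0.69 (−1.18 to −0.21) and Gdf15 by −0.64 (−1.10 to −0.17), each also at a limma adjusted p of 0.353. None of these 5 overlapped between the groups.

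Psrc1 (−1.15, interval −1.98 to −0.31) and Zmat3 (−0.49, interval −0.91 to −0.08) had intervals below 0 but overlapped, TAI/IVIg 2 lying within the TAI range. Aen was 2.12, 3.09 and 1.22 with IVIg against 4.05, 6.21 and 3.94 without, a difference of −0.89 (−1.56 to −0.22). Pidd1 was 0.602, 1.03 and 0.895 against 1.71, 2.54 and 1.20 (−0.59, interval −1.08 to −0.10). Neither gene overlapped between the groups, and neither had been called after TAI alone.

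For other members the estimate lay near 0. Fas differed by 0.002 (interval −0.33 to 0.33), Apaf1 by −0.01 (−0.41 to 0.39) and Dcxr by −0.03 (−0.40 to 0.34). These intervals leave room for differences of up to about 0.4 in either direction on the log2 scale. Btg2 (−0.22, −0.75 to 0.31), Ccng1 (−0.32, −0.77 to 0.13), Mdm2 (−0.25, −0.60 to 0.09) and Cdkn1a (−0.12, −0.53 to 0.30) likewise had intervals across 0. No test compared these genes with those whose estimates were lower.

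**Figure D3:**
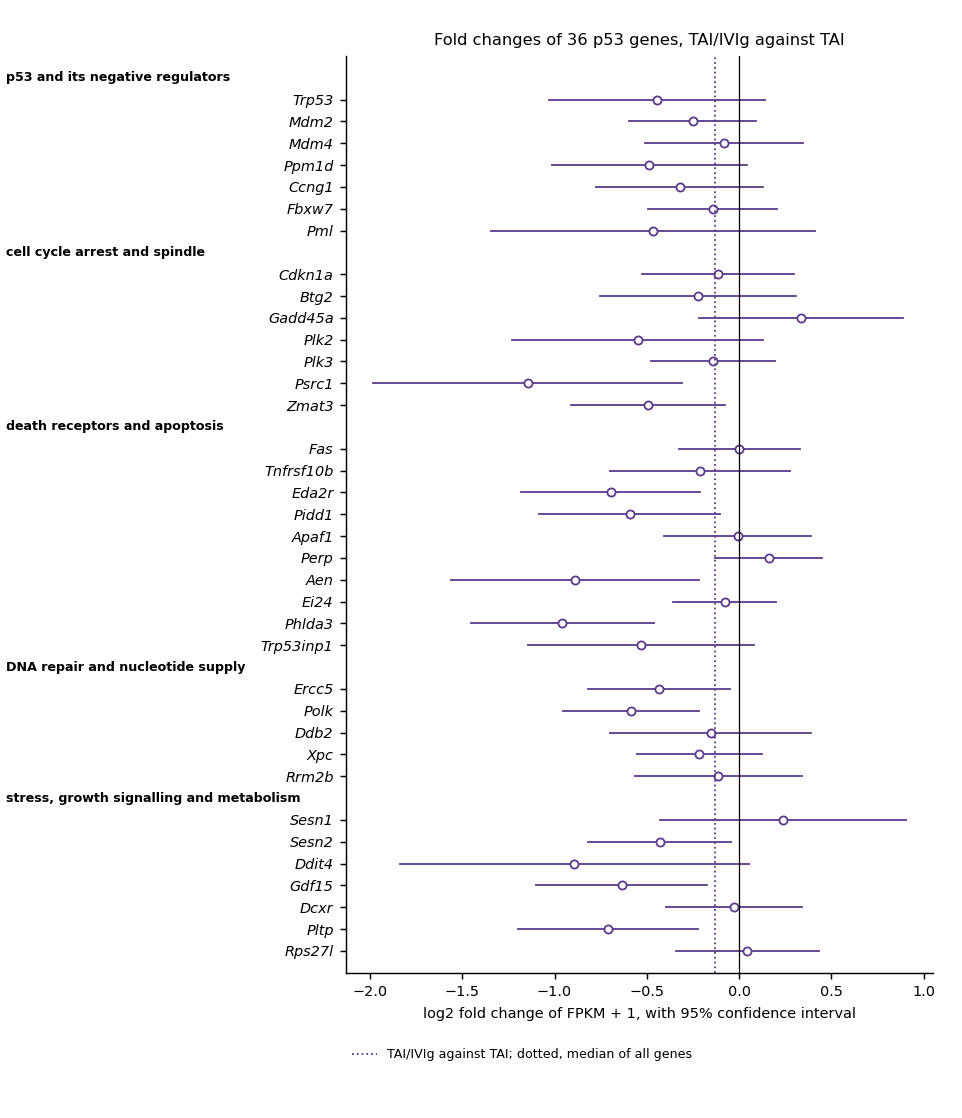
Fitted log2 fold changes of FPKM + 1 between TAI/IVIg and TAI for the 36 p53 genes, by role, with 95% confidence intervals; open points did not pass an adjusted p of 0.05, and the dotted line marks the median of all genes tested (−0.13). The intervals of 11 genes, Phlda3, Aen and Psrc1 among them, lie wholly below 0 and none lies wholly above.

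In all, 31 of the 36 members had a log2 fold change below 0 (86.1%, against 69.6% of all genes tested), with a median of −0.29 beside −0.13 for all genes. The whole table moved with the scaling as well. With library medians set equal, 22 of 36 were below 0, with a median of −0.08 beside 0.08 for all genes, and with quantile normalization 23 were, with −0.20 beside 0.05. Of the 13 members called higher after TAI, 12 were lower with IVIg and 5 of them without overlap (Eda2r, Phlda3, Trp53inp1, Sesn2 and Gdf15). The same TAI mice chose the 13, so that count is no independent comparison.

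Cell type markers differed between the same groups. Fibroblast markers summed to 73.7 to 94.2 FPKM in TAI mice and 21.1 to 47.9 in TAI/IVIg mice, and all 6 of the list were lower at an unadjusted p under 0.05. So were 6 of 6 for smooth muscle (536 to 765 against 113 to 554), 6 of 6 for Paneth cells (1788 to 4946 against 136 to 1305) and 6 of 6 for goblet cells (3368 to 4229 against 1930 to 3304), with 0 called in each list at an adjusted p of 0.05. In other lists 3 of 6 endothelial markers were lower, beside 11.2% of all genes tested. It was 1 each for tuft, stem, plasma, neutrophil and enteric neuron or glia markers, and 0 for enterocyte, enteroendocrine, T cell, B cell and macrophage markers. Control mice had 65.8 to 92.1, 482 to 621, 981 to 4853 and 1867 to 2590. Enterocyte markers were 28314 to 47854 after TAI and 42696 to 46303 after TAI/IVIg, against 11895 to 19086 in control. Of these markers, 6 of 8 were called higher in both comparisons with control, beside 8.81% and 9.06% of all genes tested. Mitochondrial transcripts took 3.03% to 3.51% of reads in control, 5.01% to 5.90% after TAI and 5.03% to 7.97% after TAI/IVIg. The part of these shifts in the members' values was not tested.

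Within each irradiated group a single mouse had the highest value for most members. The share of all genes tested for which that mouse was highest was not computed, so these counts are not particular to the members. TAI 2 was the highest of the TAI mice for 11 of the 13 genes called higher, the exceptions being Btg2 and Dcxr, and for 27 of all 36. TAI/IVIg 2 was the highest of its group for 11 of the 13, with Btg2 and Apaf1 the exceptions, and for 24 of all 36. Averaged over the 13 genes, log2(FPKM + 1) was 3.57, 3.90 and 3.51 in the TAI mice, 3.18, 3.42 and 3.06 in the TAI/IVIg mice and 2.38, 2.44 and 2.55 in control. The highest TAI/IVIg mouse was thus below the lowest TAI mouse on this average, which is a description because the TAI mice chose the 13.

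The mice numbered 2 were also the highest of their groups for Paneth cell markers (4853 for control 2, 4946 for TAI 2 and 1305 for TAI/IVIg 2). They led as well for 18 genes that p53 represses through p21 and the DREAM complex, mostly mitotic genes, which summed to 20.6 FPKM in TAI 2 against 12.8 and 14.1 in the other TAI mice, and to 13.8 in TAI/IVIg 2 against 5.25 and 5.66. In control 2 the same genes summed to 177, against 62.3 and 153. Enterocyte markers went the other way in the irradiated groups. They were lowest in TAI 2 (28314, against 37422 and 47854) and in TAI/IVIg 2 (42696, against 46303 and 44970). Control 2 lay between the other controls (15314, against 19086 and 11895). The part of these levels in the p53 gene values was not tested.

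**Figure D4:**
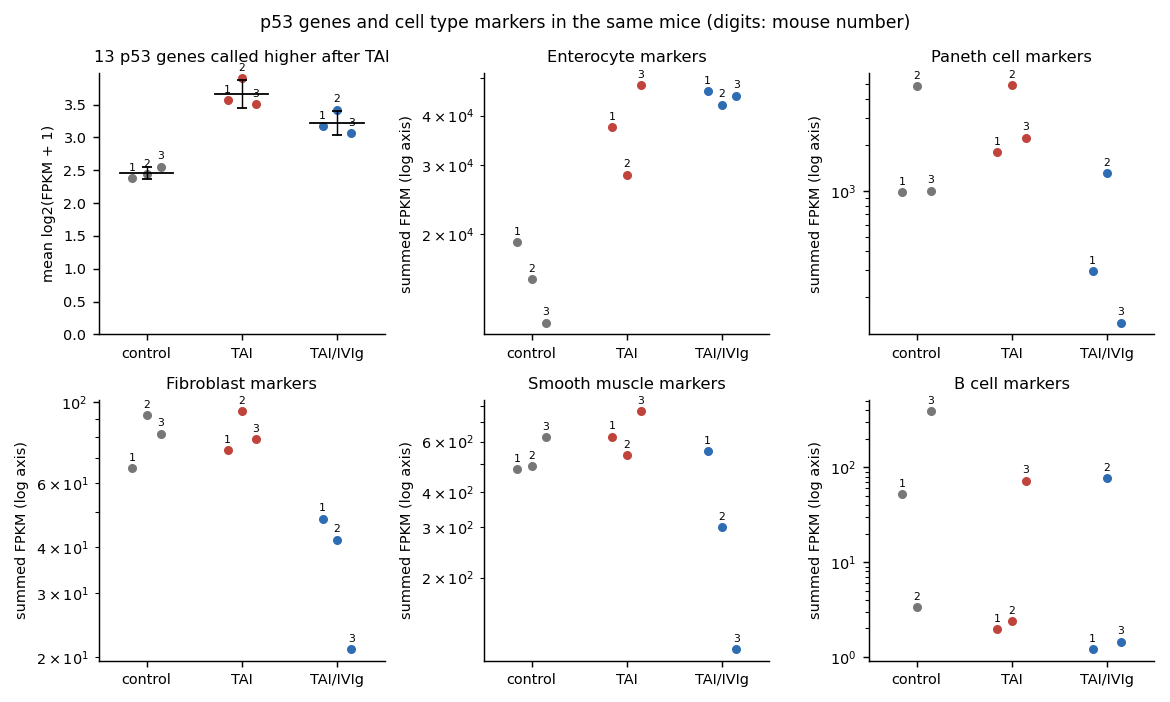
Mean log2(FPKM + 1) of the 13 p53 genes called higher after TAI (first panel, axis from 0, bars and whiskers the mean and SD, n = 3) and summed FPKM of cell type markers (other panels, log axes) in every mouse, with digits giving the mouse number. Mice numbered 2 lead the p53 average in both irradiated groups and the Paneth cell markers in all groups, control 3 leads the B cell markers at 391, and fibroblast markers in the TAI/IVIg mice (21.1 to 47.9) lie below all other mice.

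Genes of the pathway beyond the 36 were called in both directions, beside 8.81% of all genes tested called higher and 26.1% lower after TAI, and 9.06% and 37.4% after TAI/IVIg. Of 16 tested kinases, partners and modifiers of p53, 1 was higher and 4 were lower after TAI, and 1 was higher and 8 were lower after TAI/IVIg, each against control. The share lower after TAI, 4 of 16, was near that of all genes. The gene that rose was Ppp1r13l, which encodes the p53 inhibitor iASPP (0.80 and 0.47, limma adjusted p = 0.00689 and 0.0395). The largest falls were Cdkn2a, the locus of the Mdm2 inhibitor Arf, after TAI (−1.72, limma adjusted p = 0.000315) and Rpl11, a ribosomal protein that binds Mdm2, after TAI/IVIg (−2.04, limma adjusted p = 0.00166). Rpl11 and Rpl5, another ribosomal protein gene, were called lower in both comparisons. The 72 cytoplasmic ribosomal protein genes together took 1.38% to 2.69% of reads in control. Their share was 0.70% to 0.94% after TAI and 0.43% to 0.85% after TAI/IVIg. A fall of Rpl11 beyond that of its class was not tested. Of 21 further target genes tested, 4 were higher and 4 lower after TAI, and 2 were higher and 4 lower after TAI/IVIg. Thbs1, an angiogenesis inhibitor of the matrix, rose most after TAI (1.95, limma adjusted p = 0.00998) and Igfbp3, which binds insulin-like growth factors, after TAI/IVIg (0.99, limma adjusted p = 0.00894). Ckap2, a spindle protein, fell most after TAI (−0.96, limma adjusted p = 0.0278) and Shisa5, an apoptosis protein of the endoplasmic reticulum, after TAI/IVIg (−1.49, limma adjusted p = 0.00795).

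Genes repressed through p21 and DREAM fell as a group. All 15 that were tested were lower than control in both comparisons (beside 26.1% and 37.4% of all genes tested), with a median log2 fold change of −2.07 after TAI and −2.39 after TAI/IVIg. The list was chosen with earlier results of these data known, and its genes mark dividing cells in general. Against TAI, 0 genes of any of these 3 lists were called in TAI/IVIg. For TAI against control, integrated stress response genes gave 0 higher and 7 lower of 10, immediate early genes 3 higher and 0 lower of 10, and interferon-stimulated genes 1 higher and 1 lower of 10, beside 8.81% of all genes tested called higher and 26.1% lower. The 1 of 10 higher among interferon-stimulated genes was near the share of all genes.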

How the data were processed

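Jejunal RNA of 9 mice (control, TAI and TAI/IVIg, 3 each) was sequenced, and the labels give all of them the same batch. The authors deposited FPKM values per gene, a column per mouse, with no pooling. The submitters' processing notes name FastQC, Trimmomatic, STAR, featureCounts, DESeq2 and the mm10 (GRCm38) build without versions, and the strand setting is not given in the sources used here, so overlapping genes may share reads. Whole reads were recovered for 100% of genes (tolerance 0.001, with a common factor for 490 genes), and the implied lengths equaled GENCODE M21 exonic lengths for 98.2% of the genes found there.

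Genes reaching 1 FPKM in 3 or more mice were tested, 13056 in all. Their log2(FPKM + 1) was modeled by group over all 9 mice in limma 3.58.1 (R 4.3.3) with trended empirical Bayes, and Benjamini-Hochberg adjustment ran over these genes in each of the 3 comparisons. The scripts were tested on simulated data. Errors are SE of the fold change unless SD is named. The labels number mice 1 to 3 in each group without saying what a number shares. Residuals of control and TAI mice that share a number correlated with r of 0.271, 0.241 and 0.308. Those of TAI/IVIg mice correlated with the other groups at −0.296 to 0.201. An alternative fit took the number as a block over all 9 mice, TAI/IVIg included. Replicates of a group differed by more than sampling noise (chi-square per gene of 20.6 or more).

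The members, gene lists and comparisons were chosen with earlier results of these data known. Members called against control, and the 5 with the smallest unadjusted p between TAI/IVIg and TAI, are given in every mouse, and the others by range or count. Alternatives were other pseudocounts, filters, scalings and fits, voom on the recovered reads, the replicate block and leaving out each mouse. Promoter sequences are from RefSeq (GRCm38.p6) and gene models from GENCODE M21. All columns were used (0 left out). Python 3.11.15 and matplotlib 3.10.9 were used for the rest.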

Additional observations from a re-analysis of the deposited data

How the results depend on the processing

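With a mean FPKM of at least 5, which leaves 20 members to test, 8 were higher after TAI and 2 were lower after TAI/IVIg, and the members' median log2 fold change was 0.44 for TAI against control and −0.13 for TAI/IVIg against TAI. With library medians set equal, 0 were lower after TAI, and 16 were higher and 1 lower after TAI/IVIg, with medians of 0.59, 0.55 and −0.082 in the 3 comparisons in the order used above. With quantile normalization, 21 were higher and 0 lower after TAI, and 14 higher and 2 lower after TAI/IVIg, with medians of 0.55 and 0.37 against control. With voom on the recovered reads and median-ratio library sizes the counts were 20 and 0, and 14 and 2, with medians of 0.67 and 0.56. Over all genes these scalings moved the median for TAI against control from −0.23 to 0.05, −0.02 and 0.003, and the calls from 1150 higher and 3411 lower to 2159 and 1823, 1994 and 2284, and 1978 and 1913. For TAI/IVIg against control the share of all genes called higher moved from 9.06% to 22.1%, 18.4% and 18.5%. The share called lower moved from 37.4% to 14.5%, 17.3% and 18.2%. The pseudocount of 0.1, no filter, the 6-mouse fit, no trend and voom with total library sizes kept every count within 1.5 times its main value.

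Leaving out a mouse gave 10 to 14 members higher and 0 to 1 lower after TAI, 6 to 8 higher and 3 to 6 lower after TAI/IVIg, and 0 either way between TAI/IVIg and TAI, where the members' median ran from −0.43 to −0.19. Ccng1, Btg2, Psrc1, Fas, Eda2r, Apaf1, Phlda3, Sesn2 and Dcxr were called higher after TAI in every alternative that tested them. The replicate block gave 15 higher and 1 lower after TAI, 8 higher and 3 lower after TAI/IVIg, and 0 between the irradiated groups, and changed no member's call beside Plk2 and Tnfrsf10b after TAI and Ppm1d after TAI/IVIg.

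Between TAI/IVIg and TAI, estimates near 0 changed sign. Cdkn1a was 0.088 with equal medians and 0.0665 with voom and median ratios. Apaf1 was 0.197, 0.0543 and 0.179, and Dcxr 0.175, 0.0535 and 0.145, with equal medians, quantiles, and voom with median ratios. Leaving out a mouse, Apaf1 ran from −0.0772 to 0.118, Dcxr from −0.151 to 0.099 and Fas from −0.0886 to 0.131. None of these was called, and the cause was not tested. With 9 to 36 reads per control mouse, Eda2r, Psrc1 and Gdf15 have fold changes that depend most on the pseudocount.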
